A study of Homo sapiens with 2 samples.

Results

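Among the linear probes of the array, 478 pairs faced each other on opposite strands, and these pairs are described here. A pair was taken where a probe shared at least 20 consecutive bases with the reverse complement of a different probe. The 2 probes of a pair therefore hold the same stretch on its 2 strands. Strand below means the strand of the probe sequence over that stretch. Whether both probes come from the same locus was not determined for most pairs. The rule used the probe sequences alone and no signal. Linear probes are those of the Agilent catalogue (names starting A_) and of the second custom series (names starting CUST_H6L), every probe being 60 bases long. The 478 pairs held 803 of the 116953 linear probes, 358 of them catalogue and 445 custom probes. A further 15 pairs in which a probe held an alternating 2-base repeat of at least 16 bases were left out.

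The study asked whether the transcription factor FOXA1 regulates circular RNAs in HepG2, an established human liver cancer cell line, and measured total RNA on 2 one-colour Agilent arrays. The array labelled NC was hybridised with RNA of cells given a scrambled siRNA, and the array labelled siFOXA1 with RNA of cells given a mix of 3 siRNAs against FOXA1, per the methods 48 h after transfection. Both arrays lay on 1 slide, and since each condition had 1 array, differences between them have no replicate check and are given without p-values. Probe names are not paired with genes in the columns used here, so the level of FOXA1 and of liver markers, which would check the labels, was not analysed. The arrays were alike in overall quality, with 53.4% and 52.4% of the spots that are not controls flagged as well above background (NC, then siFOXA1), 0 saturated spots, and a 75th percentile of the signal of 105.8 and 91.7 units.

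Many human loci are transcribed from both strands. Antisense transcripts start inside or beyond a gene on the other strand, or run into it from a convergent neighbour, and they are often less abundant than the sense RNA and can act on its transcription, processing or stability. Labelled cRNA is complementary to the RNA it was copied from, so a probe carrying the sequence of an RNA captures the cRNA made from that RNA, and its reverse complement captures the cRNA of a transcript of the other strand. The labels name cRNA as the labelled material, and how strictly the strand was kept during labelling was not tested. Signals are therefore given for the strand of the probe and were not assigned to an RNA.

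The sequences of 3 pairs are shown, which differ in how their probes overlapped. In the first and second pair both probes, and in the third A_33_P3313625 alone, could be placed on the genome. Placing used exact matches to RefSeq miRNA hairpins or promoter windows (GRCh38.p14). No pair that met by the 3′ ends is among them. All are written 5′ to 3′, with the bases that pair in capitals. The first pair covered the same 60 bases at chr17:30117079-30117138, inside the span of NSRP1, which encodes a splicing regulator, and over the hairpins of MIR423 on the plus strand and MIR3184 on the minus strand.
CUST_H6L_73922: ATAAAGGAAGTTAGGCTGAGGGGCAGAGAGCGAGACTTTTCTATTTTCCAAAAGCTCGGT
CUST_H6L_74765: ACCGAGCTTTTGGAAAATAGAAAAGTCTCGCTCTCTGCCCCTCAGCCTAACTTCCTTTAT
The second pair overlapped by the 5′ ends of its probes over 36 bases at the hairpin of MIR4653, inside the span of AP1S1, which encodes a subunit of a clathrin adaptor. CUST_H6L_74178 lay on the plus strand at chr7:101159496-101159555, the strand of MIR4653 and AP1S1, and CUST_H6L_78826 on the minus strand at chr7:101159472-101159531.
CUST_H6L_74178: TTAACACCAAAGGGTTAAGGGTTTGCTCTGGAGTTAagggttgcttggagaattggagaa
CUST_H6L_78826: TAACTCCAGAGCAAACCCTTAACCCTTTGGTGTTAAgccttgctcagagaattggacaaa
The 32 bases shared by the third pair lay inside A_33_P3313625 and at the 5′ end of CUST_H6L_17121. They lay upstream of the long noncoding RNA gene LOC105370204 on chromosome 13 and outside the span of any gene in the RefSeq table. A_33_P3313625 matched the minus strand at chr13:49620580-49620639 over its whole length, and of CUST_H6L_17121 the shared stretch at chr13:49620589-49620620 is shown.
A_33_P3313625: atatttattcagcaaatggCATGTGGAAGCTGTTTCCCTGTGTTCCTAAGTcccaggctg
CUST_H6L_17121: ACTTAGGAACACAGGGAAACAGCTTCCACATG

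At the MIR423 locus the brighter strand was the minus strand. CUST_H6L_74765, on the strand of MIR3184, read 2856 units on NC and 2454 on siFOXA1. CUST_H6L_73922, on the strand of MIR423 and NSRP1, read 14.8 units on NC and was not well above background on siFOXA1, where it read 7.22. The strands thus differed 192-fold on NC and at least 317-fold on siFOXA1. At MIR4653 the strand of the gene was the brighter and the only strand detected. CUST_H6L_74178 read 326 units on NC and 270 on siFOXA1, and CUST_H6L_78826 read 2.05 and 1.99 units, not well above background, so that the strands differed at least 38.5-fold on NC and at least 34.9-fold on siFOXA1. In the pair upstream of LOC105370204 the probe on the minus strand, that of the gene, was the only probe detected. A_33_P3313625 read 36.8 units on NC and 35.3 on siFOXA1, and CUST_H6L_17121 read 2.43 and 4.52, not well above background, which left a ratio of at least 4.34-fold and 4.56-fold. CUST_H6L_17121 matched this locus over 32 of its 60 bases only, so its signal does not show whether the plus strand is transcribed there.

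Further placed probes lay at gene starts. The pair CUST_H6L_01565 and CUST_H6L_08613 shared 55 bases just before a RefSeq start of ALDOA, which encodes a glycolytic aldolase, at chr16:30064432-30064491 on the minus strand and chr16:30064437-30064496 on the plus strand. The plus strand, that of ALDOA, read 4030 units on NC and 3239 on siFOXA1, and the minus strand read 821 and 660, a ratio of 4.91-fold on both arrays, with a log2 change of -0.11 on each strand. At the start of UBAP2, where RefSeq also lists the small nucleolar RNA SNORD121B, the minus strand (the strand of UBAP2) read 61.1 and 52.7 units in CUST_H6L_00540 at chr9:33934296-33934355. The plus strand read 26.9 and 26.3 units in A_21_P0000465 at chr9:33934321-33934380. The strands therefore stood 2.27-fold apart on NC and 2.01-fold on siFOXA1. At the start of GHR, the growth hormone receptor gene, the probe on the strand opposite to the gene, A_33_P3301124 at chr5:42423402-42423461, read 11.2 units on NC, not well above background, and 18.4 on siFOXA1, where it was detected. Its partner CUST_H6L_26761 read 1.93 units on each array and was not detected. A_21_P0000465 also shared 20 bases with CUST_H6L_00555, which read 167 and 147 units.

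In 3 other placed pairs, all embedded, the probe on the strand of the gene was not well above background on either array and its partner was the detected and brighter probe. A_21_P0002224, at the start of the long noncoding RNA gene LOC105374764 (chr2:62415202-62415261, plus strand), read 4.18 units on NC and 4.34 on siFOXA1, and its partner CUST_H6L_27440 read 149.9 and 94.2. A_21_P0008229, before a start of ZMYM2, which encodes a zinc finger protein (chr13:19957355-19957414, plus strand), read 2.17 and 2.15 units, and its partner A_32_P192594 read 43.2 and 37.8. CUST_H6L_71034, before the start of B4GALT1-AS1, an antisense gene of B4GALT1 (chr9:33167770-33167829, plus strand), read 9.86 and 2.70 units, and its partner A_21_P0006379 read 27.9 and 20.9. The partners in these 3 pairs and in the GHR pair were not placed at these loci and shared 20 to 32 bases with the placed probe, so that these values do not compare the strands of the gene starts. In all, 30 of the 803 members shared at least 30 bases with a promoter window or 20 with a hairpin. Of these, 13 matched at 1 position with every base of the probe that lay in the window, and were taken as placed. They belonged to 10 pairs. Whether a probe lies in an exon or intron was not determined, since transcript structures were not used here. The remaining pairs are given by probe name.

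By the prefixes of their probes, 152 pairs were catalogue-catalogue, 153 catalogue-custom and 173 custom-custom. The shared stretch was 20 to 60 bases long with a median of 25 bases (quartiles 21 and 34), and reached at least 40 bases in 92 pairs. In 138 pairs the shared stretch ran to the ends of the probes, so that the overlap was complete. These end-to-end pairs comprised 63 that met by their 3′ ends, 66 that met by their 5′ ends and 9 whole-probe pairs. In the other 340 pairs, called embedded, the stretch was flanked on at least 1 side by bases that did not pair, with a median of 9 such bases over the overlap. Of the 803 probes 721 belonged to 1 pair and 82 to several, the most frequent to 8 pairs. Members therefore share sequence and are not independent, and this held mostly for embedded pairs, of which 167 contained a probe of several pairs against 12 of the end-to-end pairs. By type, embedded pairs made up 99 of the catalogue-catalogue, 125 of the catalogue-custom and 116 of the custom-custom pairs.

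Both probes were detected in most pairs. A probe counted as detected where at least 50% of its spots were flagged well above background by the scanner software. On NC both probes were detected in 315 of the 478 pairs (65.9%), 1 probe in 107 (22.4%) and neither in 56 (11.7%). The same 3 counts were found on siFOXA1. Of single members 74.7% were detected on NC and 74.6% on siFOXA1, against 56.2% and 55.1% of all linear probes. Among 4460 pairs of linear probes sharing at least 20 bases on the same strand, a comparison group described below as same-strand pairs, both probes were detected in 70.7% on NC and 1 probe in 14.6%. With 20 to 29 shared bases both probes were detected on NC in 67.0% of opposite-strand and 72.4% of same-strand pairs, and with 40 to 60 in 59.8% and 62.1%. The share with 1 probe detected stood further apart at the longest overlaps. Where 40 to 60 bases were shared, 1 strand alone was detected on NC in 25 of 92 pairs (27.2%), while 1 probe alone was detected in 49 of 544 same-strand pairs (9.01%).

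The prefix pairs differed in how often both probes were detected. Both probes were detected on NC in 124 of 152 catalogue-catalogue pairs (81.6%), in 106 of 153 catalogue-custom pairs (69.3%) and in 85 of 173 custom-custom pairs (49.1%). On siFOXA1 the counts were 126, 105 and 84. Of all linear probes, 67.4% of the catalogue and 50.9% of the custom probes were detected on NC. In same-strand pairs both probes were detected on NC in 67.8% of catalogue-catalogue, 70.8% of catalogue-custom and 71.4% of custom-custom pairs, and on siFOXA1 in 67.8%, 71.1% and 69.9%. On both arrays the catalogue-catalogue pairs had the highest share among opposite-strand and the lowest among same-strand pairs. No test of these shares was made. Neither strand was detected on NC in 8 catalogue-catalogue, 16 catalogue-custom and 32 custom-custom pairs. Among the 153 catalogue-custom pairs, the catalogue probe alone was detected in 20 on NC and the custom probe alone in 11, and on siFOXA1 in 24 and 11. The share with both strands detected also depended on whether probes were shared between pairs. It was 83.2% on NC for embedded pairs with a probe of several pairs, 53.8% for embedded pairs of probes in 1 pair and 59.5% for end-to-end pairs of probes in 1 pair.

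Which strand was detected was nearly the same on the 2 arrays. In 446 of the 478 pairs the same probes were detected on NC and siFOXA1. Of the 107 pairs with 1 detected strand on NC, 91 had the same strand alone on siFOXA1, 10 had both and 6 had neither. In 0 pairs did detection pass from a probe to its partner.

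For pairs with 1 detected strand only a lower bound of the strand ratio can be given, the brighter signal over the higher of the dimmer signal and the lowest signal of any detected probe, which was 8.48 units on NC and 7.73 on siFOXA1. The bound had a median of 8.99-fold on NC and 8.16-fold on siFOXA1, and it was at least 10-fold in 51 of the 107 pairs on each array. The largest bounds with the same strand alone on both arrays are given for each prefix pair. In the catalogue-catalogue pair A_23_P215154 and A_33_P3831099, which met by 40 bases of their 3′ ends, A_23_P215154 read 1730 units on NC and 1654 on siFOXA1. Its partner read 6.23 and 5.79 units, which left a ratio of at least 204-fold and 214-fold. A_24_P305223 read 627 and 520 units and its embedded partner A_21_P0002465 read 1.95 and 1.92, at least 73.9-fold and 67.3-fold apart. These 2 probes share 20 bases, and 16 of the 38 bases of their overlap do not pair.

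Between catalogue and custom probes, A_33_P3802146 read 8402 units on NC and 7850 on siFOXA1. Its partner CUST_H6L_30998, with 21 shared bases and 13 unpaired bases in an overlap of 35, read 2.86 and 1.91. That pair differed at least 990-fold and 1015-fold. A_33_P3818959, which was printed 10 times, read 5419 units on NC with a spot SD of 0.050 on the log2 scale, and 4549 on siFOXA1 with a spot SD of 0.073. Its partner CUST_H6L_73812, with 20 shared and 10 unpaired bases, read 3.77 and 2.33 units, at least 639-fold and 588-fold lower. Between custom probes, CUST_H6L_58521 read 31684 and 25666 units against 1.98 and 5.20 units for CUST_H6L_39545. The bounds of that pair were 3734-fold and 3320-fold, and those of the next pair, CUST_H6L_33499 at 19167 and 16657 units against CUST_H6L_06717 at 2.89 and 6.14, were 2259-fold and 2155-fold. Both of these custom pairs were embedded, with 23 and 22 shared bases, and 19 and 23 bases of an overlap of 52 did not pair. Whether the probes of such embedded pairs read the same locus was not determined. In each of these 6 pairs the partner was not well above background on either array.

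Where both probes were detected, their signals usually differed several-fold. A signal ratio of 2 probes also holds their different affinities, so it describes the signals and is not a ratio of RNA amounts. Over the 315 pairs with both probes detected, the brighter probe exceeded the dimmer by a median of 5.19-fold on NC (quartiles 2.22-fold and 15.3-fold), which is 2.38 on the log2 scale with a 95% interval of the median over pairs of 2.06 to 2.64. On siFOXA1 the median was 4.67-fold, or 2.22 on the log2 scale (1.89 to 2.51). The ratio was under 2-fold in 72 pairs on NC, at least 10-fold in 98 and at least 100-fold in 32. The intervals treat pairs as independent, which pairs with a shared probe are not. The largest ratio, in a pair named after its values were seen, was 23213-fold on NC. In that pair A_21_P0013877 read 264712 units on NC and 263077 on siFOXA1, and A_21_P0000293 read 11.4 and 8.53. They share 21 bases, and 22 of the 46 bases of their overlap do not pair. The dimmer of these probes lay close to the detection limit. In the 3151 same-strand pairs with both probes detected, the median ratio was 1.95-fold on NC and 1614 pairs were under 2-fold.

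The signals of same-strand pairs were closer where the overlap was longer, and those of opposite strands were not. For 20 to 29, 30 to 39 and 40 to 60 shared bases the median ratio on NC was 5.69-fold, 3.08-fold and 5.76-fold between opposite strands. For same-strand pairs of these lengths it was 2.41-fold, 1.56-fold and 1.27-fold. By prefix the median strand ratio on NC was 5.23-fold in 124 catalogue-catalogue, 4.91-fold in 106 catalogue-custom and 6.06-fold in 85 custom-custom pairs. The 95% intervals of these medians overlapped, at 1.74 to 2.74, 1.78 to 2.84 and 1.55 to 3.21 on the log2 scale. Pairs meeting by their 3′ ends had a median of 3.30-fold over 36 pairs and those meeting by their 5′ ends 5.28-fold over 39 pairs.

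In the catalogue-custom pairs the catalogue probe was the brighter in 70 of the 106 pairs with both probes detected on NC and in 65 of 105 on siFOXA1, with a median ratio of catalogue over custom of 2.55-fold and 2.28-fold. The excess lay in embedded pairs, where it was 62 of 89 on NC, and in end-to-end pairs the catalogue probe was the brighter in 8 of 17. By the start of their names, catalogue probes were split into designs for long noncoding RNAs (A_19, A_21 or A_22) and the rest, called mRNA designs here. The split was not checked against an annotation. A_33_P3313625, an mRNA design by this split, lay upstream of a long noncoding RNA gene. The mRNA designs were brighter than the custom probe in 62 of 88 pairs on NC, with a median of 2.87-fold. The noncoding designs were brighter in 8 of 18 on NC, with a median of 0.73-fold, and in 8 of 20 on siFOXA1, with a median of 0.47-fold. Some designs recur among these pairs, so the medians rest on fewer probes than pairs. On NC A_22_P00020169 stood at log2 ratios of -2.80, -2.69 and -3.71 to CUST_H6L_21140, CUST_H6L_26101 and CUST_H6L_33271. A_21_P0014766 stood at 1.66 and 4.27 to CUST_H6L_06418 and CUST_H6L_30184. Among the 28 pairs of a noncoding design and a custom probe, the custom probe alone was detected in 7 on NC and the noncoding design alone in 2. In 29 pairs of an mRNA and a noncoding design with both detected on NC, the mRNA design was the brighter in 19, with a median of 2.67-fold. Where such pairs overlapped end-to-end it was the brighter in 13 of 17, with a median of 5.19-fold, and in 14 of 18 on siFOXA1. No test of these shares was made.

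The 9 whole-probe pairs, in which 1 probe is the exact reverse complement of the other, compare the strands at the same bases. Both strands were detected in 8 of them on NC and in 7 on siFOXA1. The strand ratio ranged from 1.63-fold to 337-fold on NC among the pairs with both detected. CUST_H6L_33206 read 7733 units on NC and 6874 on siFOXA1, against 23.0 and 14.6 for CUST_H6L_74588. A_33_P3360867, an mRNA design, read 1154 and 942 units against 11.3 and 10.8 for the noncoding design A_21_P0013330, a ratio of 102-fold and 86.9-fold. These 2 pairs and the pair at MIR423 had the 3 largest ratios of the whole-probe pairs, with 1 bright strand and the other close to background.

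The other whole-probe pairs had closer strands. A_33_P3359354 read 806 and 743 units against 139 and 122 for A_23_P51187, and A_23_P64630, an mRNA design, read 741 and 483 units against 90.3 and 55.1 for the noncoding design A_22_P00019621. CUST_H6L_56256 read 1453 units on NC and 1113 on siFOXA1 against 221 and 375 for CUST_H6L_23902, so that the ratio went from 6.58-fold to 2.97-fold. The closest strands were those of A_23_P111865 at 71.9 and 63.7 units and A_33_P3239532 at 44.1 and 37.6. CUST_H6L_01578 at 120 and 147 units and CUST_H6L_75591 at 68.0 and 60.1 stood 1.76-fold and 2.45-fold apart. In CUST_H6L_15013 and CUST_H6L_76037 the first probe alone was detected on both arrays, at 31.1 and 17.9 units.

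Among catalogue-custom pairs with both probes detected on both arrays, the 2 with the longest overlap are given next. A_33_P3312682 read 73426 units on NC and 58896 on siFOXA1, and CUST_H6L_74767, which shared 54 bases at the 5′ ends, read 8003 and 6458. The ratio was 9.17-fold and 9.12-fold and the log2 change -0.11 and -0.10. In A_23_P106708 and CUST_H6L_19028, with 53 shared bases and 2 unpaired bases beside them, the signals were 18420 and 12180 units against 967 and 904. Their ratio went from 19.1-fold to 13.5-fold.

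The brighter strand was the same on both arrays in nearly all pairs. Of the 305 pairs with both probes detected on both arrays, the same probe was the brighter in 294, including all 234 pairs with a ratio of at least 2-fold on NC. The log2 strand ratio differed between the arrays by a median of 0.24 in size, against 0.08 in 3072 same-strand pairs, and by more than 1.4-fold in 68 of the 305 pairs (158 of the 3072). Pairs of catalogue probes shifted least, with a median of 0.19 and 11 of 123 pairs past 1.4-fold, and 33 of 102 catalogue-custom and 24 of 80 custom-custom pairs did so. In mean base composition the brighter and the dimmer probe of these 305 pairs differed slightly. Cytosine made up 23.1% of the brighter and 21.2% of the dimmer probes on average, and adenine 27.5% and 29.2%. Guanine made up 21.3% and 22.7%, and thymine 28.1% and 26.9%. The brighter probe held more cytosine in 166 pairs and as much in 26, and it held more guanine in 116 pairs and as much in 18.

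From NC to siFOXA1, a smaller share of members than of all linear probes was lower in signal and a slightly larger share was higher, differences that were not tested and that turned under other settings. Signals were compared after division by the 75th percentile of each array, over probes detected on at least 1 array and with the study's threshold of 1.4-fold. Of 615 members so detected, 47 (7.64%) were lower and 84 (13.7%) were higher. Of the 68068 linear probes, 12.1% were lower and 11.7% were higher. With normexp background correction 3.74% of members and 3.62% of all linear probes were lower, and at 1.2-fold 20.5% and 21.3% were higher, so that the order of the shares turned. The median log2 change was -0.01 for members and -0.02 for all linear probes. Among catalogue probes facing catalogue probes 8 of 203 were lower and 21 higher. Among catalogue probes facing custom probes 11 of 117 were lower and 18 higher, among custom probes facing catalogue probes 10 of 104 and 14, and among custom probes facing custom probes 18 of 211 and 36. The probes of end-to-end pairs had 14 lower and 35 higher of 202, or 6.93% and 17.3%. Without scaling the split of members turned to 120 lower and 58 higher, when all linear probes had a median log2 change of -0.23. With the E1A spike-in probes as the scale, chosen after seeing the data, it was 328 lower and 31 higher at a median of -0.52 over all linear probes. Of all linear probes 23.4% were lower without scaling and 54.3% on the spike-in scale.

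Across pairs, the changes of the 2 probes were more closely correlated in end-to-end than in embedded pairs. Over pairs with both probes detected on both arrays, the log2 change of a probe and of its partner had a correlation of r = 0.63 in 80 end-to-end pairs and r = 0.22 in 225 embedded pairs. Each pair was entered in both orders, since the order of its probes has no meaning. The points share 2 arrays and the scale, and r is a description across pairs. It was 0.70 for 35 pairs meeting by their 3′ ends, 0.60 for 38 meeting by their 5′ ends, and 0.02 for the 7 whole-probe pairs. Over 52 pairs sharing 40 to 60 bases it was 0.67, and over 205 pairs sharing 20 to 29 bases 0.12. In embedded pairs whose probes belonged to 1 pair only, r was 0.49 over 87 pairs, and in those with a probe of several pairs -0.18 over 138. In end-to-end pairs the same split gave 0.64 over 72 pairs and 0.14 over 8. By prefix r was 0.58 in 123 catalogue-catalogue, 0.27 in 102 catalogue-custom and 0.22 in 80 custom-custom pairs. Same-strand pairs had r = 0.80 over 3072 pairs.

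Both probes of a pair passed 1.4-fold together more often in the same direction than in opposite directions. Of 325 pairs with each probe detected on at least 1 array, 6 had both probes lower, 17 both higher, 5 had opposite directions, 81 had 1 probe past 1.4-fold and 216 none. The 23 pairs with a shared direction were 7.08% of the 325. Among 3199 same-strand pairs 7.63% had both probes past 1.4-fold in the same direction and 0.156% in opposite directions. End-to-end pairs had 3 both lower, 8 both higher and 0 opposite of 87, and embedded pairs 3, 9 and 5 of 238. With 1 probe alone past 1.4-fold the geometries were alike, at 22 end-to-end (25.3%) and 59 embedded pairs (24.8%). In same-strand pairs these shares were 16.2% and 11.7%. Of 8 whole-probe pairs 0 had both probes past 1.4-fold and 4 had 1 probe alone. By prefix the counts of shared and opposite directions were 5 and 0 of 127 catalogue-catalogue, 9 and 3 of 109 catalogue-custom, and 9 and 2 of 89 custom-custom pairs. In 39 catalogue-custom pairs 1 probe alone passed 1.4-fold (35.8%), against 18 catalogue-catalogue pairs (14.2%) and 24 custom-custom pairs (27.0%). Of the 39 pairs 38 were embedded, and several of them held the same changed probe, such as CUST_H6L_64932 and CUST_H6L_50028. In end-to-end pairs the counts were 1 of 17 catalogue-custom pairs (5.88%), 12 of 44 catalogue-catalogue pairs (27.3%) and 9 of 26 custom-custom pairs (34.6%). In same-strand pairs 1 probe alone passed 1.4-fold in 11.3% of catalogue-custom, 13.7% of catalogue-catalogue and 12.1% of custom-custom pairs. Among catalogue-catalogue pairs the share was 7.23% on opposite strands and 12.7% on the same strand in embedded pairs, and 27.3% and 18.5% in end-to-end pairs. All but 2 of the 23 pairs consisted of probes that belonged to no other pair.

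The pairs with the largest shared decrease kept their strand ratio. A_23_P108280 read 445 units on NC and 159 on siFOXA1, a log2 change of -1.28, and its embedded partner CUST_H6L_50277, with 32 shared bases, read 48.6 and 18.5, a log2 change of -1.19. Their ratio was 9.15-fold and 8.59-fold. A_23_P54991 read 2218 and 1200 units and CUST_H6L_48034 read 39.1 and 18.5, with log2 changes of -0.68 and -0.87 and 30 bases shared at the 3′ ends. A_33_P3356701 read 572 and 281 units and A_33_P3220202 read 52.8 and 29.2, with log2 changes of -0.82 and -0.65 and 29 bases shared at the 3′ ends. In each of these pairs both probes were lower on siFOXA1, and 1 probe was at least 8-fold the brighter. Over all 305 pairs with both probes detected on both arrays, the ratio shifted by more than 1.4-fold in 68.

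The pairs with the largest shared increase were of both geometries. A_24_P82880 read 1184 units on NC and 3760 on siFOXA1 and A_21_P0012436, a noncoding design sharing 22 bases with 1 unpaired base, read 498 and 1422, with log2 changes of 1.87 and 1.72. In CUST_H6L_56343 and CUST_H6L_53209, which were dim, the signals were 23.7 and 76.7 units and 29.9 and 62.5 units. A_23_P314101 read 369 and 670 units and CUST_H6L_77728 read 21.5 and 46.0, with log2 changes of 1.07 and 1.30 and 27 bases shared at the 3′ ends. The longest overlap among the pairs with a shared direction, named after its values were seen, was that of A_23_P104762 and the noncoding design A_22_P00016281, with 59 bases. They read 2393 and 3543 units and 390 and 572 units, with log2 changes of 0.77 and 0.76 and a strand ratio of 6.14-fold and 6.19-fold.

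The 5 pairs with opposite directions were all embedded, and 4 of them held short alternating repeats of thymine and guanine facing cytosine and adenine. Of these 4, 3 contained the same probe, CUST_H6L_01314, which read 164 units on NC and 328 on siFOXA1 (log2 change 1.21) and holds a 2-base repeat of 14 bases. Its partners CUST_H6L_30439, CUST_H6L_51513 and A_33_P3298612, with repeats of 15, 14 and 13 bases, read 4022 and 1445, 6510 and 2826, and 269 and 114 units. In A_33_P3302428 and CUST_H6L_65597 the signals were 186 and 297 units against 30441 and 7785, with log2 changes of 0.88 and -1.76 and repeats of 15 and 10 bases. These repeats are shorter than the 16 bases of the rule. Over all linear probes tested with a repeat of at least 10 bases, 95 of 142 with thymine and guanine were higher and 4 lower, and 70 of 94 with cytosine and adenine were lower and 1 higher. The part of the repeats in the pairs' opposite directions was not tested. Without pairs holding such a repeat, an alternative chosen after seeing the data, 1 of 320 pairs had opposite directions. It was the dim pair A_33_P3413945 at 17.0 and 9.53 units, not well above background on siFOXA1, and CUST_H6L_63285 at 11.8 and 23.8, which shared 55 bases beside 1 unpaired base.

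Repeated spots give the only error within an array. Of the members 49 were printed 10 times, and the 43 of these detected on both arrays had a median spot SD of 0.070 on NC and 0.087 on siFOXA1 on the log2 scale. Both probes were printed 10 times in 2 pairs. A_19_P00801042 read 143 units on NC and 87.3 on siFOXA1, with spot SDs of 0.092 and 0.071 on the log2 scale, and CUST_H6L_11714 read 249 and 235, with spot SDs of 0.051 and 0.043. Their log2 changes were -0.51 and 0.12. A_32_P56143 read 291 and 310 units, with spot SDs of 0.055 and 0.061, and CUST_H6L_11498 read 1303 and 1304, with spot SDs of 0.054 and 0.024. Their log2 changes were 0.30 and 0.21. The spot SD covers the printing and reading of 1 hybridised sample and not the difference between cultures.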

How the data were processed

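RNA of HepG2 cells was hybridised to 1 one-colour Agilent array per condition. Per the file headers, the deposited intensity of each spot (processed signal) was background-corrected by Feature Extraction 10.7.1.1. The authors also deposited a matrix of log2 values for 138395 probes, with a median of 3.40 in each column, which was used as an alternative. It correlated with the log2 processed signal across probes at r = 0.99999 on both arrays.

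Outlier-flagged spots (1479 on NC, 1416 on siFOXA1) were left out, and the log2 intensity minus the array's 75th percentile over spots that are not controls was averaged over the spots of a probe. Pairs were found by exact search over all linear probes. Same-strand pairs of identical sequence (104) were set aside. The pairs named in the text were, among those with both probes detected on both arrays, the 2 per prefix pair with the longest overlap and the 3 with the largest smaller change in each combination of directions, further, among those with the same probe alone detected on both arrays, the 2 per prefix pair with the largest bound on NC, the 3 longest overlaps of all, and pairs with both probes printed 10 times. Whole-probe and placed pairs were added. Members and lists were chosen with earlier results of these data known. Probes were placed on 35116 promoter windows and 1562 hairpins of RefSeq. The number of arrays limits the precision, and counting depth does not apply. On simulated probes, the search found 100% of 200 planted pairs and the 1.4-fold threshold 100% of 200 planted changes. The planted changes were larger than the threshold and the simulated noise was small, so their recovery was fixed in advance. It checks the code and not how well changes are found with 1 array per condition. Alternatives in detection, scaling, background, threshold and the pair rule were run. Tools were R 4.3.3 with limma 3.58.1, and Python 3.11.15 with scipy 1.17.1, pandas 2.3.3 and numpy 2.4.6.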

Additional observations from a re-analysis of the deposited data

How the results depend on the processing

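No paired analysis was possible because NC and siFOXA1 are single arrays, and as both lie on 1 slide, the slide could not be fitted as a block. Each share was set against its 95% exact binomial interval over probes or pairs, or moved if a share past the fold differed by over 1.5 times, and each median ratio against its 95% interval. Of 110 alternative values 75 stayed within these bounds, among them those by quantile normalization, the authors' matrix, cyclic loess, detection on both arrays, no filter on dim probes and flagged spots kept, which moved none.

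With normexp (offset 50) the median size of the log2 strand ratio fell to 1.79 on NC and 1.77 on siFOXA1, the members lower and higher were 3.74% and 6.67% (all linear probes 3.62% and 3.52%), and pairs with a shared direction 4.00%. For shared stretches of at least 30 bases the median ratio on siFOXA1 was 1.88, a shared direction was found in 11.9% and opposite directions in 0.917% of 109 pairs. For at least 40 bases both probes were detected in 59.8% on NC and 59.8% on siFOXA1 and 1 probe in 27.2% on NC, with 5.07% lower and 16.7% higher. Without pairs holding a probe of several pairs, both probes were detected in 56.2% on NC and 56.2% on siFOXA1, 1 probe in 27.8% and 27.1%, 16.9% of members were higher and 11.9% of 177 pairs shared a direction. Median scaling gave 10.4% lower (all linear probes 13.5%). No scaling gave 19.5% lower and 9.43% higher (all linear probes 23.4% and 7.21%). At 1.2-fold 20.5% were lower and 20.5% higher (all linear probes 24.5% and 21.3%), 15.4% of pairs shared a direction and 2.77% were opposite, and at 2-fold the values were 1.46%, 4.72%, 1.23% and 0.615% (all linear probes 2.94% lower and 3.91% higher). The order of members against all linear probes therefore turned for lower signals with normexp and for higher signals at 1.2-fold. Spike-in scaling, chosen after seeing the data, gave 53.3% lower, 5.04% higher (all linear probes 54.3% and 4.05%), 28.6% shared and 3.38% opposite. Leaving out 2-base repeats of at least 10 bases, also chosen after seeing the data, gave 0.312% opposite. No shared stretch held a run of 1 base of 8 or more, so that alternative changed nothing. Signals near 8 units are limited by background.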

Other observations

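The 15 pairs left out for a 2-base repeat of at least 16 bases showed a different pattern from the 478 pairs described. Of the 14 with each probe detected on at least 1 array, 14 had their probes past 1.4-fold in opposite directions. Against this stood 5 of 325 among the pairs kept. Probes recur among the left-out pairs, which are therefore not independent of each other, and the cause of their directions was not tested.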
